A study of Ovis aries with 4 samples.

Results

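The signals described here are the 4 genes BMP4, INHBA, TGFB1 and ID3, which were looked up by symbol among the 20150 genes of a single-cell data set of the lactating sheep mammary gland, 774 of which carried a symbol. Bone morphogenetic proteins, activins and TGF-beta are secreted relatives that bind paired type I and type II receptor kinases on the receiving cell, and these phosphorylate SMAD proteins that enter the nucleus with SMAD4. BMP4 codes for a ligand of the BMP branch. INHBA codes for the subunit of activin A, TGFB1 for TGF-beta 1, a brake on T cells and a driver of matrix production, and ID3 for an inhibitor of differentiation that is a textbook direct target of BMP signals. In the mammary gland these ligands pass between stroma, blood vessels, immune cells and epithelium, and TGF-beta is known for restraining milk secretion and promoting involution. The identifiers in the files were ENSOARG00000021069 for BMP4, ENSOARG00000017475 for INHBA, ENSOARG00000007468 for TGFB1 and ENSOARG00000007318 for ID3; genome positions and sequences were not used here.

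Tissue came from 4 lactating ewes, and each ewe gave 1 droplet library, in which transcripts are counted per cell by unique molecular identifiers (UMIs). LH and LL each have replicates 1 and 2, so n = 2 ewes per stage. LL stands for late lactation in the description of the series, and LH was taken as its peak lactation group by elimination. No other treatment, age or genotype was labelled. The libraries held 28015149 and 56178927 UMIs (LH) and 60303230 and 65339993 UMIs (LL), and 5853, 9361, 12639 and 11033 cells remained in this order after barcodes with over 20% mitochondrial UMIs were left out. Pairs of libraries shared between 15 and 39 barcodes. In this order the libraries gave 126, 326, 1376 and 694 UMIs of BMP4, 52, 232, 158 and 133 of INHBA, 5358, 1532, 2631 and 1882 of TGFB1, and 2227, 8448, 8342 and 8314 of ID3.

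Cells were sorted in silico by marker transcripts, none of which is a member. The gates were DCN for fibroblast-like cells, EDNRA or IGFBP7 for a population given no cell type, KDR, SELP or SELE for blood endothelium-like cells, RELN for lymphatic endothelium-like cells, CD3E for T cell-like cells, C1QA for macrophage-like cells and EPCAM or CLDN4 for luminal epithelium-like cells. Between 59.7% and 68.5% of the cells of a library passed 1 gate, 9.57% to 11.9% passed several and were left out, and 20.4% to 30.7% passed none. Markers that were not used for gating are given for 5 of the gates. GSN, an actin-severing protein abundant in fibroblasts, lay between 8985 and 10711 CPM (UMIs of the gene per 1000000 UMIs of the gate) in the DCN gate and between 40.4 and 1531 CPM in the other gates. MRC1, the mannose receptor of macrophages, lay between 214 and 384 CPM in the C1QA gate and reached 96.8 CPM in the other gates, in RELN cells. LTF, the milk protein lactoferrin, lay between 1295 and 4345 CPM in the EPCAM/CLDN4 gate and reached 626 CPM elsewhere. CD247, a T cell receptor chain, lay between 41.8 and 73.5 CPM in the CD3E gate and reached 8.53 CPM elsewhere. CNN1, the smooth muscle protein calponin, lay between 48.3 and 78.4 CPM in the EDNRA/IGFBP7 gate and reached 12.0 CPM elsewhere.

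Some gates were thin or mixed. The DCN gate held 160, 19, 1621 and 1031 cells in LH replicates 1 and 2 and LL replicates 1 and 2, the RELN gate 40, 57, 473 and 195, and the KDR/SELP/SELE gate 3, 24, 596 and 47. The RELN gate of LH replicate 2 had 2506 CPM of IGFBP7 against 161 to 446 in the other libraries, and 120 CPM of F8, coagulation factor VIII of lymphatic endothelium, against 246 to 480. The RELN gate of LL replicate 1 had 441 CPM of SELP, the blood endothelial adhesion molecule P-selectin, against 0 to 5.98 elsewhere. LTF stood at 365, 19.9 and 626 CPM in the KDR/SELP/SELE gate of LH replicate 2 and LL replicates 1 and 2, against 0 to 71.7 CPM in the RELN gate. The gate on IDO1 and IGFBP6 together held 14, 8, 7 and 1 cells, too few for a level. In its place an unsupervised cluster was used, chosen after the data were seen as the cluster with the highest IDO1. It held 192, 215, 468 and 427 cells and was led by MMP7 (matrilysin, an epithelial matrix protease). IDO1 itself, an enzyme of tryptophan breakdown, stood at 388, 0, 23.9 and 2.54 CPM in its 4 libraries, so the cluster is called MMP7-led here. Of its cells, 39, 36, 114 and 70 were also counted in the EPCAM/CLDN4 gate and 27, 35, 39 and 65 in the EDNRA/IGFBP7 gate.

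**Figure D1:**
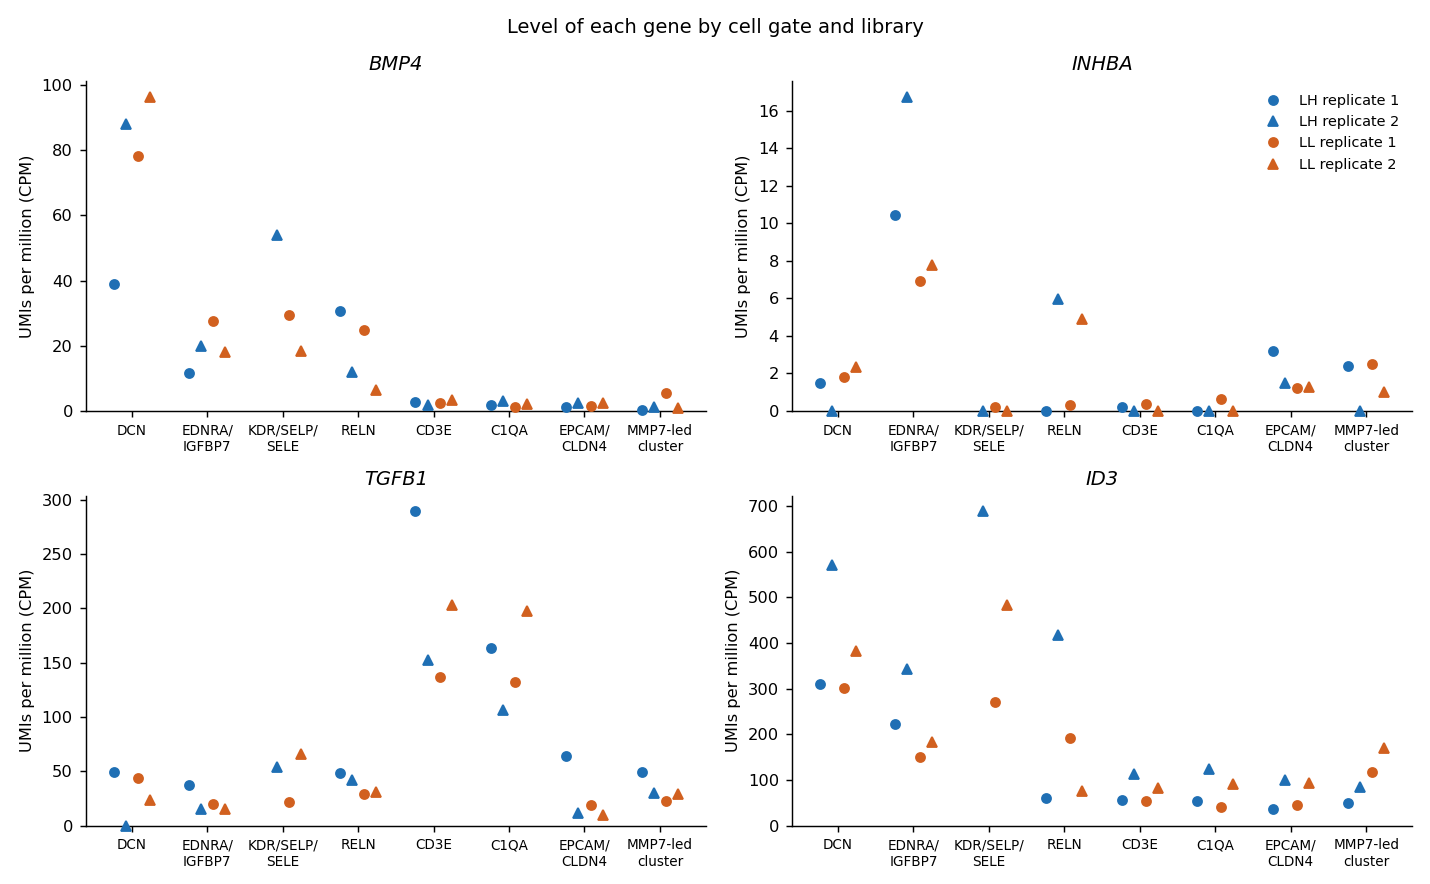
Level of BMP4, INHBA, TGFB1 and ID3 (vertical axis, CPM) in each cell gate (horizontal axis); every point is 1 library with at least 15 cells in the gate, circles for replicate 1 and triangles for replicate 2, blue for LH and orange for LL. BMP4 was highest in the DCN gate in all 4 libraries, INHBA in the EDNRA/IGFBP7 gate, TGFB1 in the CD3E gate, and ID3 in the DCN or KDR/SELP/SELE gates.

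BMP4 was highest in fibroblast-like cells. In the DCN gate it measured 38.9 and 87.9 CPM in LH replicates 1 and 2 and 78.3 and 96.4 CPM in LL replicates 1 and 2, from 26, 4, 471 and 286 UMIs. This was the highest of the gates in each of the 4 libraries, and the level of LH replicate 2 rested on 3 cells with a UMI. The share of DCN cells with a BMP4 UMI was 11.3% in LH replicate 1 (exact 95% interval 6.81% to 17.2%, counting error only), 21.7% in LL replicate 1 and 20.0% in LL replicate 2. After each cell was thinned to 1000 UMIs these shares were 3.27%, 7.25% and 10.3%.

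Vascular and EDNRA/IGFBP7 cells carried a lower level of BMP4. The EDNRA/IGFBP7 gate had 11.8, 19.9, 27.6 and 18.1 CPM in LH replicates 1 and 2 and LL replicates 1 and 2. The KDR/SELP/SELE gate had 54.1 CPM in LH replicate 2, 29.5 in LL replicate 1 and 18.4 in LL replicate 2. The first of these values came from 8 UMIs in 1 of 24 cells, whereas 79 of the 596 cells of LL replicate 1 had a UMI. The RELN gate had 30.8, 12.0, 24.9 and 6.52 CPM, with the 7 UMIs of LH replicate 1 in 1 of 40 cells. The CD3E, C1QA and EPCAM/CLDN4 gates lay between 1.24 and 3.50 CPM in every library, with 0.533% to 0.908% of CD3E cells holding a UMI, at median depths of 2407 to 3379 UMIs per cell against 1997 to 3464 in the DCN gate.

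Each gate was tested against the mean of the other gates in edgeR's quasi-likelihood test with the library as a block and Benjamini-Hochberg adjustment. The fit over the 7 gates, which used sums of at least 15 cells and so left out the KDR/SELP/SELE cells of LH replicate 1, was added after the cell numbers were seen. In it BMP4 was higher in the DCN gate by a log2 of 3.13 ± 0.23 (SE, adjusted p = 8.2e-11). The background is wide in such a comparison, since 22.9% of the 12083 genes tested were called higher in the DCN gate. Of the 4 members, BMP4 and ID3 were called higher there. BMP4 was also higher in the KDR/SELP/SELE gate, by 1.74 ± 0.33 (adjusted p = 0.00037, against 13.2% of genes), but not called without LL replicate 1 (log2 1.72, adjusted p = 0.086). With cells of several gates kept its sign turned (log2 -0.60, adjusted p = 0.079). In the fit over the 5 gates with at least 20 cells in every library, BMP4 was higher in the EDNRA/IGFBP7 gate by 2.25 ± 0.26 (adjusted p = 1.4e-06, against 28.4% of 11585 genes) and in the RELN gate by 2.06 ± 0.35 (adjusted p = 0.00023, against 17.6%). The RELN call was lost without LL replicate 1 (log2 1.55, adjusted p = 0.062) and when every cell passing several gates was left out, with no gate given precedence (log2 1.05, adjusted p = 0.12).

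DCN transcripts outside the DCN gate were set beside BMP4. DCN stood between 0 and 103 CPM in the 6 other gates and between 15333 and 19454 CPM in the DCN gate. Scaled by that ratio, fibroblast RNA would bring at most 0.51 CPM of BMP4 into the EDNRA/IGFBP7 gate and at most 0.43 CPM into the CD3E gate, where 1.90 to 3.50 CPM were measured. The DCN level outside its gate is capped by the gating, which moved or left out cells with at least 3 DCN UMIs and 20 per 10000, and the part of free RNA in the BMP4 values was not tested.

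INHBA was found at a low level and mainly in EDNRA/IGFBP7 cells. It measured 10.5 and 16.7 CPM in LH replicates 1 and 2 and 6.91 and 7.78 CPM in LL replicates 1 and 2 there, from 16, 138, 64 and 43 UMIs. This gate was the highest in all 4 libraries. Over the 24 sums of the other 6 gates INHBA ran from 0 to 5.98 CPM, and 10 of them held no UMI. Its difference from the other gates was a log2 of 3.99 ± 0.40 (adjusted p = 3.2e-07, fit over 5 gates) and 3.77 ± 0.34 (adjusted p = 4.4e-09, fit over 7 gates). The share of EDNRA/IGFBP7 cells with an INHBA UMI was 3.22% and 4.11% for LH and 1.86% and 1.81% for LL, against 0% to 0.104% of CD3E cells.

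The EDNRA/IGFBP7 gate was divided to place INHBA and BMP4 more closely. Its cells were split by TPM1 (tropomyosin 1 of contractile filaments, at least 10 UMIs per 10000) and the rest by any UMI of FABP4 (a fatty acid-binding protein of capillary endothelium and fat cells); this split was chosen with results of these data known. TPM1-high cells made up 54.5% and 51.7% of the gate for LH and 33.5% and 33.7% for LL. In them INHBA measured 16.7 and 27.5 CPM for LH and 16.7 and 12.6 CPM for LL. In TPM1-low cells without FABP4 it was 1.65 and 2.32 CPM for LH and 2.91 and 6.59 CPM for LL, and in TPM1-low cells with FABP4 it was 0 to 2.83 CPM in 3 libraries, with a single UMI in the 25 such cells of LH replicate 1. TPM1-high cells thus held the highest INHBA of the gate in all 4 libraries, by values and without a test.

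BMP4 lay the other way round within the gate. TPM1-high cells had 7.15 and 13.5 CPM of BMP4 for LH and 14.2 and 13.1 CPM for LL. TPM1-low cells without FABP4 had 18.1 and 26.5 CPM for LH and 27.2 and 19.8 CPM for LL, above the TPM1-high cells of the same library in all 4 libraries. TPM1-low cells with FABP4 had 12.0 CPM (1 UMI) and 42.4 CPM for LH and 42.0 and 22.6 CPM for LL. The activin gene and the BMP gene therefore had their highest levels in different cells of the same gate in all 4 libraries.

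**Figure D2:**
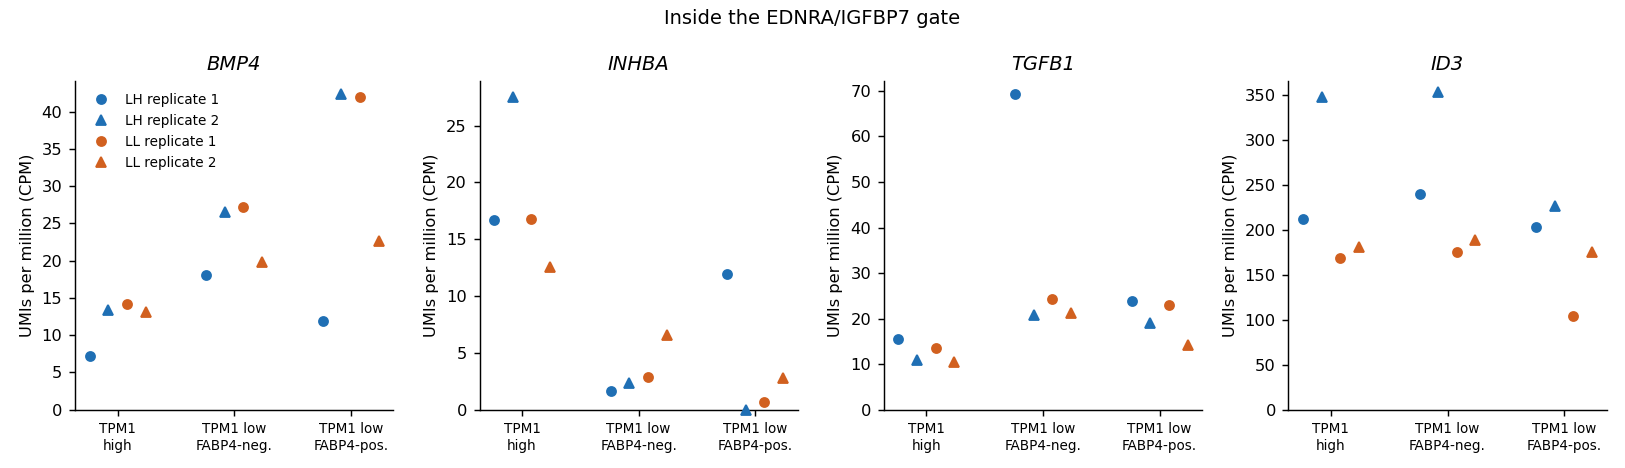
Level of each gene (CPM) in the 3 parts of the EDNRA/IGFBP7 gate, with 1 point per library, blue for LH and orange for LL. INHBA was highest in TPM1-high cells (12.6 to 27.5 CPM), and BMP4 was lowest in them (7.15 to 14.2 CPM). The ID3 values of both LH libraries lay above those of both LL libraries in all 3 parts, as did those of 18.4%, 20.4% and 21.2% of genes.

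TGFB1 was highest in immune cells. T cell-like cells of the CD3E gate had 289 and 153 CPM in LH replicates 1 and 2 and 136 and 203 CPM in LL replicates 1 and 2. Macrophage-like cells of the C1QA gate had 164 and 107 CPM for LH and 132 and 198 CPM for LL. The CD3E gate was the highest and the C1QA gate the next in each of the 4 libraries, and their gap was 136 against 132 CPM in LL replicate 1 and 203 against 198 CPM in LL replicate 2. A TGFB1 UMI was seen in 45.2% and 27.7% of CD3E cells for LH and 27.6% and 31.9% for LL. Thinned to 1000 UMIs per cell, these shares were 20.4%, 14.7%, 12.8% and 15.5%.

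In the fit over 5 gates TGFB1 was higher in the CD3E gate by a log2 of 2.45 ± 0.20 (adjusted p = 1.8e-08, against 26.7% of genes called higher) and in the C1QA gate by 1.90 ± 0.21 (adjusted p = 1.0e-06, against 23.8%). It was lower in the EDNRA/IGFBP7, EPCAM/CLDN4 and RELN gates (log2 -1.77, -1.65 and -0.94, adjusted p = 1.6e-05, 2.7e-05 and 0.020), where 21.8%, 25.5% and 16.1% of genes were called lower. Over the 4 members and 5 gates, 14 of 20 pairs were called, 6 of them higher and 8 lower. Of all genes, 29.2% were called higher in EPCAM/CLDN4, 29.9% lower in CD3E and 24.8% lower in C1QA. The EDNRA/IGFBP7 gate had 37.3, 15.04, 20.2 and 15.6 CPM, the RELN gate 48.4, 41.9, 29.6 and 31.0 CPM and the DCN gate 49.4, 0, 43.5 and 23.3 CPM.

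TGFB1 levels varied between clusters of T cell-like cells. Of the unsupervised clusters of CD3E cells, the one led by XCL1 (a lymphocyte chemokine), IFNG (interferon gamma) and CD52 had 574 and 366 CPM for LH and 215 and 434 CPM for LL. TGFB1 was itself among the leading genes of this cluster, so its level there is a description. Pooled over the libraries, a cluster led by CD28, CD40LG and CD4 had 280 CPM of TGFB1, and another XCL1-led cluster had 104 CPM. The highest of these clusters in TGFB1 also had ID3 at 126 and 183 CPM for LH and 255 and 165 CPM for LL, against 56.8, 113, 53.6 and 81.9 CPM in the whole CD3E gate. A cluster led by the mast cell genes TPSB2 and FCER1A, of 103 cells, had 344 CPM of TGFB1. All of these cells came from LL, 88 from replicate 1 and 15 from replicate 2.

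The epithelial level of TGFB1 was set apart by 1 library. The EPCAM/CLDN4 gate had 64.6 CPM in LH replicate 1 and 11.3, 18.7 and 9.85 CPM in LH replicate 2 and LL replicates 1 and 2. LH replicate 1 was rich in T cell-like cells, with 2314 of its 5853 cells in the CD3E gate, and CD247 stood at 8.53 CPM in its epithelial gate against 1.88 to 3.76 elsewhere. Scaled by the ratio of CD247 between the gates, T cell RNA would bring 33.6 CPM of TGFB1 into these epithelial cells, and scaled by LCK, a T cell kinase, 18.3 CPM. The part of T cell RNA in the measured level was not tested.

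**Figure D3:**
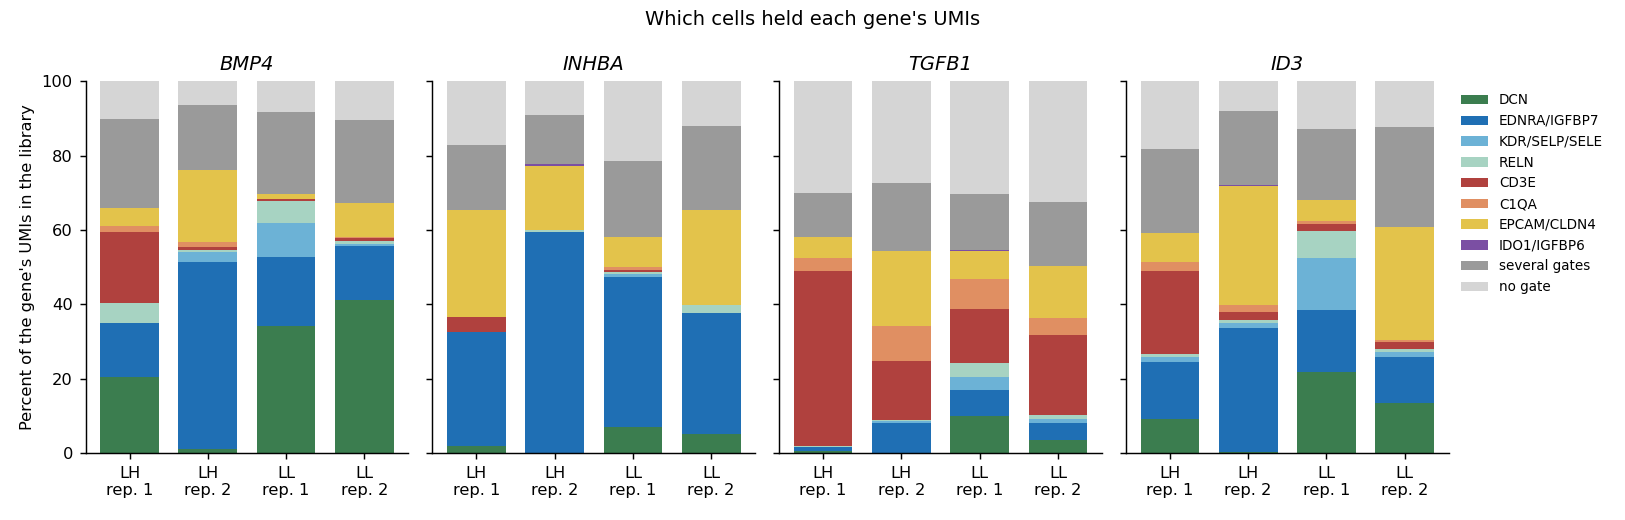
Share of each gene's UMIs (percent of the gene's UMIs in the library) by the gate of the cell that held them, with 1 bar per library; grey parts are cells of several gates or of none. TGFB1 UMIs fell in CD3E cells for 47.1% in LH replicate 1 and for 14.5% to 21.6% in the other libraries, and BMP4 UMIs fell in DCN cells for 34.2% and 41.2% in LL libraries and for 20.6% and 1.23% in LH libraries.

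These levels are per UMI of a gate, and the supply of a library also follows its number of cells. DCN cells held 20.6% and 1.23% of the BMP4 UMIs for LH and 34.2% and 41.2% for LL. EDNRA/IGFBP7 cells held 14.3% and 50.3% of them for LH and 18.5% and 14.4% for LL. For INHBA, EDNRA/IGFBP7 cells held 30.8% and 59.5% for LH and 40.5% and 32.3% for LL, and EPCAM/CLDN4 cells, with a low level but many UMIs per cell, 28.8%, 17.2%, 8.23% and 25.6%. Cells of no gate held 27.5% to 32.5% of TGFB1 UMIs in the 4 libraries. Shares of dissociated cells need not be those of the tissue.

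Among the gates, ID3, the target, was highest in fibroblast-like and blood endothelium-like cells. One small unsupervised cluster, led by IL1B and CXCL8, lay above both gates in all 4 libraries, at 961 to 4371 CPM. Blood endothelium-like cells had 690 CPM in LH replicate 2, 272 CPM in LL replicate 1 and 483 CPM in LL replicate 2. Fibroblast-like cells had 310 and 572 CPM for LH and 302 and 383 CPM for LL. The 2 gates exchanged the highest place between libraries, with the KDR/SELP/SELE gate above in LH replicate 2 and LL replicate 2 and the DCN gate above in LL replicate 1. EDNRA/IGFBP7 cells had 223 and 343 CPM for LH and 150 and 183 CPM for LL. Immune and epithelial gates were lower, with 56.8, 113, 53.6 and 81.9 CPM in the CD3E gate, 54.0, 125, 40.1 and 90.9 CPM in the C1QA gate and 36.7, 99.7, 44.7 and 94.7 CPM in the EPCAM/CLDN4 gate. In these 3 gates replicate 2 was above replicate 1 at both stages, and the same held in the DCN and EDNRA/IGFBP7 gates and in the MMP7-led cluster. The KDR/SELP/SELE gate had this order for LL, with too few cells in LH replicate 1, and the RELN gate had it for LH only. The ewes carry no label that links the numbers.

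In the fit over 7 gates ID3 was higher in the KDR/SELP/SELE gate by a log2 of 1.63 ± 0.25 (adjusted p = 2.3e-05) and in the DCN gate by 1.28 ± 0.22 (adjusted p = 4.6e-05). The former did not hold with cells of several gates kept (log2 -0.14, adjusted p = 0.66). The part of the epithelial LTF given above in the KDR/SELP/SELE levels was not tested. The EDNRA/IGFBP7 gate was called against the other gates in the fit over 5 gates (1.25 ± 0.24, adjusted p = 0.00042) and not in that over 7 gates (0.51 ± 0.22, adjusted p = 0.069), which sets the fibroblast-like and blood endothelium-like cells among the others. The RELN gate had 61.6 and 419 CPM for LH and 193 and 76.6 CPM for LL, a range as wide within a stage as over all libraries, and was not called (0.64 ± 0.28, adjusted p = 0.089). Its high value fell in the library whose RELN gate had the raised IGFBP7 given above, and its part in the level was not tested. It was called without LH replicate 1 (0.82, adjusted p = 0.044), without LL replicate 2 (0.96, adjusted p = 0.016) and with stricter gates (0.85, adjusted p = 0.027).

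In the DCN gate, 49.4% and 42.1% of cells for LH and 48.0% and 46.2% for LL had an ID3 UMI. In the EDNRA/IGFBP7 gate the shares were 39.1% and 42.2% for LH and 27.6% and 28.1% for LL, and 17.0%, 23.4%, 11.7% and 14.7% after thinning. The CD3E gate, at a like depth, had 14.7%, 19.005%, 11.007% and 13.8%. The 30 cells of the IDO1/IGFBP6 gate held 34 ID3, 15 TGFB1 and 1 INHBA UMIs, and 0 of BMP4, which allows up to 10% of such cells with a UMI.

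LL was then compared with LH inside each gate, the question the 2 stages of the study pose. No member was called in any gate by edgeR's quasi-likelihood test on the UMI sums. In the 5 gates with at least 20 cells per library, 0 of 15 member and gate pairs passed an adjusted p of 0.05 and 2 had an unadjusted p under 0.05. With the DCN gate, for which the minimum was lowered to 15 cells after the numbers were seen, and the MMP7-led cluster, it was 0 of 20 and 4. DESeq2, run without that filter on low counts, called 0 of 28 and had 3 at an unadjusted p under 0.05. Its own filtering can leave pairs of low counts without an adjusted p, and the 28 include any such pairs. Few genes of any kind were called by edgeR, at 0.0341% of those tested in the EDNRA/IGFBP7 gate, 0.0109% in CD3E, 0.0123% in C1QA, 0.015% in EPCAM/CLDN4, 0% in RELN, 0.0743% in DCN and 0.0296% in the MMP7-led cluster, so that a count of 0 members is no contrast to the rest. By DESeq2 the shares were 0.427%, 0.15%, 0.0475%, 1.09%, 0%, 0.0318% and 0.635% in the same order. These are shares of all genes with a UMI in the group, a wider base than that of edgeR.

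ID3 in EDNRA/IGFBP7 cells had its 2 LL values (150 and 183 CPM) below its 2 LH values (223 and 343 CPM), as did those of 21.8% of the 9270 genes with a mean of at least 5 CPM in this gate. The difference was a log2 of -0.74 ± 0.23 (unadjusted p = 0.017, adjusted p = 0.58). The parts of the gate are cells of the same 4 libraries, so they repeat this comparison and add no independent ewes. TPM1-high cells had 212 and 348 CPM in LH against 169 and 181 CPM for LL. TPM1-low cells without FABP4 had 241 and 354 CPM against 175 and 189 CPM, and those with FABP4 had 204 and 227 CPM against 104 and 176 CPM. LL lay below LH without overlap for 18.4%, 20.4% and 21.2% of the genes of these parts, in this order. Without the filter on low counts the adjusted p was 0.046, where 1.89% of 16611 genes were called. With cells of several gates kept the log2 was -0.27, and without LH replicate 2 it was -0.42. Over the other alternatives the adjusted p ran from 0.20, without LH replicate 1, to near 1, without LL replicate 1.

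INHBA lay below the level of 20 CPM set for naming and is given after its values were seen. In EDNRA/IGFBP7 cells it had 6.91 and 7.78 CPM for LL against 10.5 and 16.7 CPM in LH. The stages did not overlap, as held in this direction for 21.8% of 9270 genes. The log2 was -0.91 ± 0.32 (unadjusted p = 0.027, adjusted p = 0.63), and it was -0.50 without LH replicate 2 and -0.44 with cells of several gates kept. TPM1-high cells, which held most of its INHBA, were 33.5% and 33.7% of the gate in LL against 54.5% and 51.7% in LH, and the part of this in the difference was not tested. Inside the TPM1-high cells the stages met, at 16.7 and 27.5 CPM in LH against 16.7 and 12.6 CPM for LL. BMP4 in the same gate did not separate by stage (log2 0.50 ± 0.34, adjusted p = 0.80).

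BMP4 in the DCN gate had a log2 of 0.87 ± 0.36 between stages (unadjusted p = 0.028, adjusted p = 0.77), and its levels overlapped, since 87.9 CPM in LH replicate 2 exceeded 78.3 CPM in LL replicate 1. The value rested on few LH cells: it was 0.25 without LH replicate 1, where LH rests on the 4 UMIs of LH replicate 2. ID3 in the DCN gate differed by -0.20 ± 0.32 (adjusted p near 1) and TGFB1 by -0.45 ± 0.51 (adjusted p near 1). The plain averages of the TMM-scaled TGFB1 levels had the other order, at 27.9 CPM (LH) and 34.3 CPM (LL), with 0 UMIs in LH replicate 2.

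ID3 in the MMP7-led cluster stood the other way round. It measured 50.6 and 84.7 CPM for LH and 118 and 170 CPM for LL, so the stages did not overlap, as held in this direction for 19.4% of 9783 genes. The log2 was 1.12 ± 0.29 (unadjusted p = 0.0077, adjusted p = 0.30). Without the filter on low counts the adjusted p was 0.0097, where 3.65% of 15760 genes were called. DCN in this cluster also differed by library, at 6.02 and 54.7 CPM for LH and 488 and 194 CPM for LL, which by the ratio of DCN would bring 0.12 to 9.33 CPM of ID3 from fibroblasts. IGFBP6, an IGF-binding protein that led the cluster, was at 2042 and 2016 CPM for LH and 650 and 322 CPM for LL. The median depth of the cluster was 9339.5 and 2764 UMIs per cell for LH and 3921.5 and 3590 for LL. Scrublet called 4.69% and 2.79% of its cells doublets for LH and 7.91% and 9.84% for LL. The part of these differences in the ID3 values was not tested. Among the groups compared, the cluster had the highest and the EDNRA/IGFBP7 gate the lowest stage difference of ID3. The p-values of a contrast between them make no allowance for this. The stage difference of ID3 in the cluster minus that in the EDNRA/IGFBP7 gate was a log2 of 1.82 ± 0.26 (unadjusted p = 0.00022, adjusted p = 0.33), in a test that called 0% of 11003 genes. With the cells that the 2 groups share left out of both, a choice made after seeing the data, it was 2.00 ± 0.28 (adjusted p = 0.10, with 0% of 10871 genes called).

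TGFB1 was not called between stages in any gate. In the CD3E gate the log2 was -0.36 ± 0.34 (adjusted p = 0.94). It turned on the LH replicates, being -0.75 without LH replicate 2 and 0.22 without LH replicate 1. Each of these leaves 1 LH ewe, which is assumed to vary like the LL pair. In the C1QA gate it was 0.16 ± 0.34 (adjusted p = 0.96). In the EPCAM/CLDN4 gate it was -1.36 ± 0.82 (adjusted p = 0.69), and 0.30 without LH replicate 1. The remaining stage differences were not called, with TGFB1 at -0.41 ± 0.46 in EDNRA/IGFBP7 cells, -0.53 ± 0.37 in RELN cells and -0.70 ± 0.38 in the MMP7-led cluster, ID3 at -0.24 ± 0.35 in CD3E, -0.64 ± 0.46 in C1QA, 0.07 ± 0.62 in EPCAM/CLDN4 and -0.71 ± 0.92 in RELN cells, and BMP4 at -0.25 ± 0.89 in RELN cells. Whether the stage difference of a member depended on the gate was tested in 1 fit over 7 gates, and no member was called in any gate (adjusted p of at least 0.855, with 0% of 13516 genes called in 6 gates and 0.0148% in KDR/SELP/SELE).

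**Figure D4:**
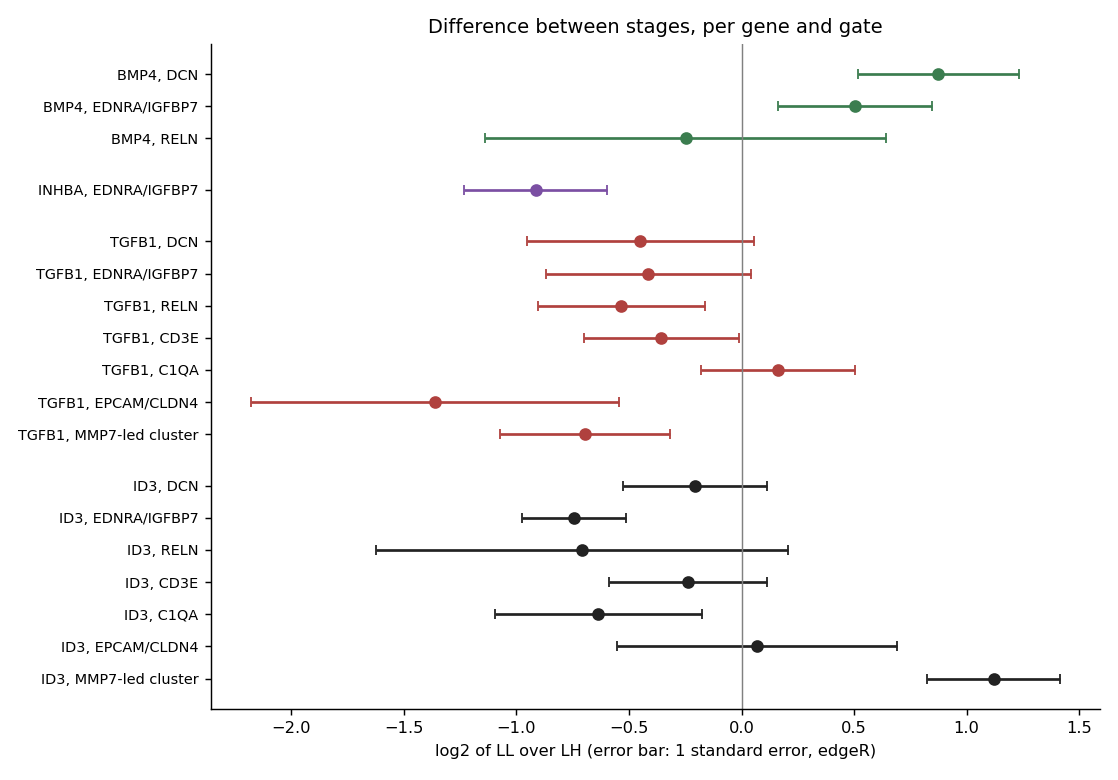
Difference between stages (horizontal axis, log2 of LL over LH; points are edgeR estimates and bars 1 standard error) for each gene and gate with at least 20 CPM at either stage, and for INHBA. ID3 lay at -0.74 in EDNRA/IGFBP7 cells and at 1.12 in the MMP7-led cluster, and none of the 18 differences passed an adjusted p of 0.05.

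The receptors with a symbol were ACVR2A, BMPR1A, BMPR1B and BMPR2, 4 of 18 listed. BMPR1A, a type I receptor for BMPs, was found in fibroblast-like, EDNRA/IGFBP7 and epithelial cells, at 148 to 220 CPM in DCN, 148 to 220 CPM in EDNRA/IGFBP7 and 152 to 187 CPM in EPCAM/CLDN4 cells. T cell-like and macrophage-like cells had at most 18.5 CPM. The difference from the other gates was a log2 of 2.26 ± 0.32 in DCN, 2.25 ± 0.29 in EDNRA/IGFBP7 and 2.40 ± 0.29 in EPCAM/CLDN4 cells (fit over 7 gates, adjusted p = 3.8e-06, 1.2e-06 and 2.4e-07, against 22.9%, 22.9% and 30.8% of genes called higher). The RELN gate had 0, 120, 7.47 and 8.15 CPM, with the high value again in LH replicate 2. BMPR2, a type II receptor for BMPs, was highest in the MMP7-led cluster (178 to 195 CPM) and in KDR/SELP/SELE cells. The latter had 115, 161 and 162 CPM in LH replicate 2 and LL replicates 1 and 2 (log2 1.63 ± 0.16 against the other gates, adjusted p = 2.8e-08). BMPR2 was lowest in CD3E cells (14.2, 16.5, 16.1 and 11.48 CPM).

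ACVR2A, a type II receptor for activins, was highest among the gates in DCN cells, at 169, 132, 81.4 and 139 CPM (log2 1.79 ± 0.18, adjusted p = 1.3e-08), while the INHBA-bearing EDNRA/IGFBP7 cells had 61.4, 40.0, 36.6 and 47.8 CPM. The MMP7-led cluster had 93.2 to 188 CPM. BMPR1B, another type I receptor known for its effect on litter size in sheep, was found in EPCAM/CLDN4 cells at 39.0 and 16.6 CPM for LH and 4.89 and 9.74 CPM for LL. SMAD4, the shared partner, was at 52.5 to 90.6 CPM in all libraries of the DCN, EDNRA/IGFBP7, CD3E and EPCAM/CLDN4 gates. The receptors for TGF-beta, TGFBR1 and TGFBR2, had no symbol in the files used here, so TGFB1 could not be set beside them.

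The inhibitors with values to give were FST, BAMBI, NOG and DCN. FST, follistatin, which binds activin, was at 35.9, 22.0, 19.1 and 48.2 CPM in DCN cells. In EDNRA/IGFBP7 cells it was at 3.92, 4.61, 53.7 and 10.7 CPM, and within them at 0, 16.9, 111 and 26.2 CPM in TPM1-low cells with FABP4 against 2.38, 2.94, 15.2 and 3.52 CPM in the TPM1-high cells where INHBA lay. BAMBI, a pseudoreceptor that blocks type I receptors, was at 47.6, 66.1, 38.3 and 15.9 CPM in C1QA cells and at most 11.6 CPM in the other 6 gates (log2 3.58 ± 0.33, adjusted p = 2.6e-09, against 24.1% of genes). NOG, noggin, reached 22.0 CPM in the 19 DCN cells and 5.98 CPM in the 57 RELN cells of LH replicate 2, each from 1 UMI, and less elsewhere. DCN, decorin, which binds TGF-beta, was the marker of its gate. Of the other ligands with a symbol, BMP15, GDF9, MSTN and INHA did not exceed the 8.93 CPM of MSTN in EPCAM/CLDN4 cells of LH replicate 2 in any of the 7 gates.

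Among genes that process ligands or free TGF-beta from its latent form, the ones given here were chosen after their values were seen. The integrin subunit ITGB6 was at 373, 453, 241 and 267 CPM in EPCAM/CLDN4 cells (log2 5.11 ± 0.30, adjusted p = 1.6e-12) and at 213 to 486 CPM in the MMP7-led cluster. Its partner ITGAV was at 775 to 1233 CPM in C1QA cells and 212 to 404 CPM in EPCAM/CLDN4 cells. The gelatinase MMP2 was at 403 to 539 CPM in DCN cells and PLAU, urokinase, at 382 to 559 CPM in C1QA cells. FURIN, the protease that cuts TGF-beta and BMP precursors, was at 0 to 22.7 CPM in the 7 gates.

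**Figure D5:**
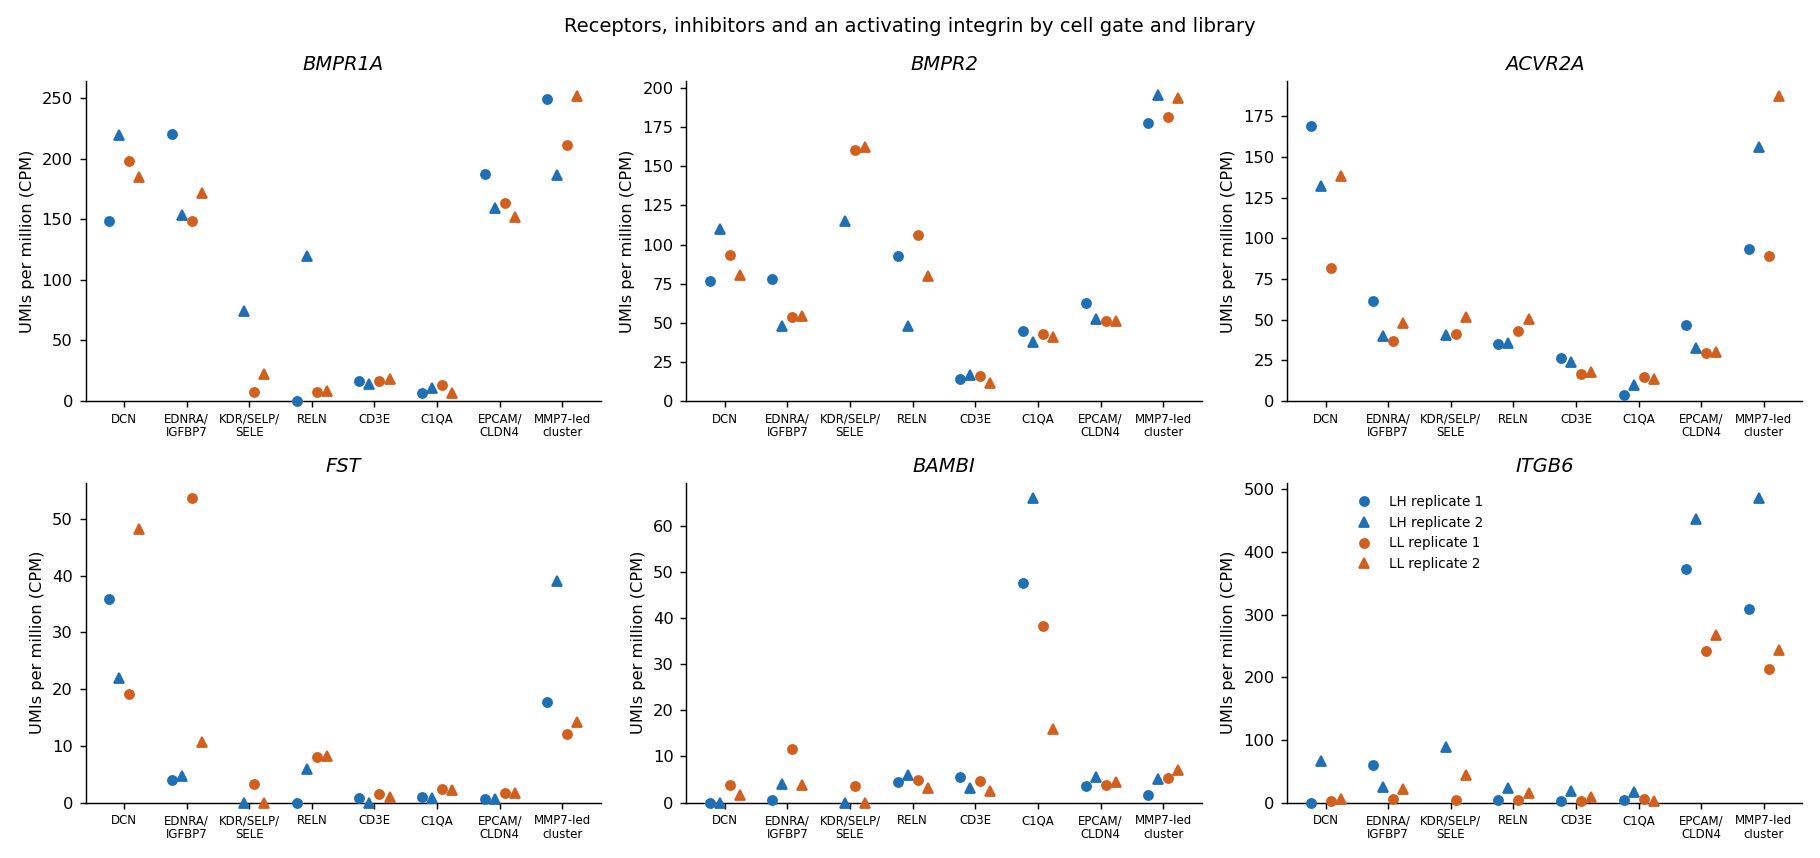
Levels (CPM) of 3 receptors (BMPR1A, BMPR2, ACVR2A), 2 inhibitors (FST, BAMBI) and the integrin ITGB6 by gate, with 1 point per library of at least 15 cells, blue for LH and orange for LL. BMPR1A was shared by DCN, EDNRA/IGFBP7, EPCAM/CLDN4 and MMP7-led cells, while BAMBI stood out in C1QA cells and ITGB6 in EPCAM/CLDN4 and MMP7-led cells.

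No pathway gene was called between stages. The lists of ligands, receptors, SMADs, inhibitors, activators and targets together named 132 genes. Of these, 27 were tested in EDNRA/IGFBP7 cells, 16 in CD3E, 17 in C1QA, 30 in EPCAM/CLDN4, 13 in RELN, 22 in DCN and 24 in MMP7-led cells, with 0 called in either direction. Unadjusted p-values under 0.05 numbered 9, 1, 3, 8, 1, 3 and 6, where 7.22%, 6.47%, 6.14%, 8.0%, 3.94%, 5.93% and 10.1% of all genes tested had one. The median log2 over the listed genes was 0.12 in EDNRA/IGFBP7 cells against -0.01 over all genes tested, -0.05 against 0.00 in CD3E, 0.13 against -0.01 in C1QA, -0.11 against 0.00 in EPCAM/CLDN4, -0.22 against -0.01 in RELN, 0.05 against 0.05 in DCN and 0.02 against 0.01 in MMP7-led cells.

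Of the 3 pathway genes of lowest p in each gate, DCN was 1 in all 6 groups other than the DCN gate, with a log2 of LL over LH between 2.42 and 3.78 (adjusted p of at least 0.26). DCN is also the fibroblast marker, and its gate held 160 and 19 cells for LH and 1621 and 1031 for LL; the part of fibroblast RNA in these 6 differences was not tested. TPM1, a TGF-beta target in many cells, had a log2 of -0.78 ± 0.17 in EDNRA/IGFBP7, -0.96 ± 0.42 in C1QA, -1.06 ± 0.26 in EPCAM/CLDN4 and -1.99 ± 0.84 in RELN cells. CDKN1A, the cell cycle inhibitor p21, was at 259 and 378 CPM for LH and 802 and 579 CPM for LL in EDNRA/IGFBP7 cells (log2 1.15 ± 0.26, adjusted p = 0.46), and had a log2 of -0.81 ± 0.35 in C1QA cells. CCN2, a matrix-associated growth factor induced by TGF-beta, had a log2 of 1.82 ± 0.28 in EPCAM/CLDN4 cells, with 6.18 and 7.12 CPM in LH against 21.2 and 25.1 CPM for LL (adjusted p = 0.47).

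In DCN cells PLAU (log2 1.90 ± 0.56) and ACVR2A (-0.64 ± 0.32) were among the genes of lowest p, with adjusted p of 0.45 and 0.92. In the MMP7-led cluster MMP2 was at 2.81, 5.21, 26.8 and 16.3 CPM (log2 2.54 ± 0.54, adjusted p = 0.23) and BGN, the proteoglycan biglycan, had a log2 of -1.06 ± 0.25. The remaining ones were FURIN (0.99 ± 0.45) and ACVR2A (-0.54 ± 0.25) in CD3E cells and BGN in RELN cells (-2.54 ± 0.62). MMP2 and DCN both had their highest levels in the DCN gate, and the part of fibroblast RNA in the values of the MMP7-led cluster was not tested.

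The genes whose levels ran most like each member were found over 26 sums of 1 gate in 1 library with at least 20 cells, among 439 named genes, by Pearson's r of log2(CPM + 5). These sums share libraries and cell types, so r describes a pattern across gates and carries no test. BMP4 ran with FHL1 (r = 0.92), CAST (0.84), RABAC1 (0.82), IGFBP4 and IGFBP3 (0.79 each). INHBA ran with REM1 (0.90), TPM1 (0.88), CNN1 (0.88), SLC25A4 (0.84) and EDNRA (0.83). TGFB1 ran with CD53 (0.88), CTLA4, the T cell checkpoint receptor (0.87), ITGAL, an integrin of leukocytes (0.86), and CXCR4 (0.85). ID3 ran with SPARC, a matrix protein (0.80), ATAT1 (0.80), BMP4 (0.77), HADHA (0.76) and CLOCK (0.74).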

How the data were processed

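Mammary tissue of 4 ewes was measured by droplet single-cell RNA sequencing. The authors deposited raw UMI counts per gene and barcode; these were made with Cell Ranger (7.2.0 per the file headers, 5.0.1 per the submitters' processing notes, which also name STAR and Seurat 3.2.0), and the genome build is not given in the sources used here. Each barcode held at least 500 UMIs, with library medians of 2693 to 3294.

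Groups came from the titles. Members, gene lists and gates were chosen with earlier results of these data known, as was the rule for naming genes (members in every gate, their stage change from 20 CPM, and pathway genes called or of the 3 lowest p per gate). Some genes that this rule picked are not reported here. Gates needed at least 3 DCN UMIs (and 20 per 10000), 1 EDNRA UMI or 3 of IGFBP7 (and 10 per 10000), 1 of CD3E, 2 of C1QA (and 4 per 10000), 1 each of IDO1 and IGFBP6, 1 of EPCAM or CLDN4, 2 of RELN, or 2 of KDR, SELP and SELE together. Cells of several gates were left out, except that IDO1/IGFBP6 came before EPCAM/CLDN4, RELN before KDR/SELP/SELE and both before IGFBP7 in cells without EDNRA. Doublets were otherwise kept, and called with Scrublet in an alternative. In LH replicate 1 Scrublet's own threshold of 0.471 called 0% of cells, so the median threshold of the other libraries, 0.1679, was used there. Counts were summed per library and gate and tested with edgeR 4.0.16 in R 4.3.3 (TMM, filterByExpr with a minimum count of 10, Benjamini-Hochberg over all genes); levels are CPM on unscaled totals. Clusters came from scanpy 1.11.5 and leidenalg 0.10.2. Shares have exact Clopper-Pearson 95% intervals. The scripts were tested on simulated counts.

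With 2 ewes per stage the p-values rest on few samples.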

Additional observations from a re-analysis of the deposited data

Results flagged for a closer look

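The stage difference of ID3 had opposite signs in 2 cell groups. Both LL ewes were below both LH ewes in EDNRA/IGFBP7 cells and above both in the MMP7-led cluster. The former held for 21.8% of 9270 genes and the latter for 19.4% of 9783 genes. The difference between the 2 effects was a log2 of 1.82 ± 0.26 and missed the threshold after adjustment (edgeR adjusted p = 0.33). These effects were the lowest and the highest for ID3 among the groups compared, and the test makes no allowance for that choice. The 2 groups share 27, 35, 39 and 65 cells per library, and without these the value was 2.00 ± 0.28 (adjusted p = 0.10).

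Members were also found in cells that passed no gate and entered no comparison. Over the 4 libraries these cells held 221 UMIs of BMP4, 80 of INHBA, 3451 of TGFB1 and 3202 of ID3. TGFB1 stood there at 324 and 112 CPM for LH and 78.4 and 97.3 CPM for LL, and LCK, a T cell kinase, at 25.6, 10.1, 9.61 and 10.7 CPM.

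The highest ID3 of any cluster was in cluster 25, 256 cells led by IL1B, CXCL8, PLAUR and TLR4, with 1511 CPM over the libraries. It measured 1109 and 2344 CPM for LH and 961 and 4371 CPM for LL, from 53, 159, 175 and 96 UMIs. A UMI was present in 24.1% and 40.4% of its cells for LH and 29.7% and 48.0% for LL, at median depths of only 831 to 1225 UMIs per cell. ID3 was kept out of the genes used to form the clusters. The cluster was picked for its ID3 level, so this is a description.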

How the results depend on the processing

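The BMP4, INHBA, TGFB1 and ID3 gate differences given above kept their direction, where run, under RLE normalization, no filter on low counts, stricter gates, cells of at least 1000 UMIs and without Scrublet calls; RLE and no filter were run over 5 gates only, and stricter gates gave no INHBA value. With cells of several gates kept, the KDR/SELP/SELE differences turned to -0.60 (BMP4) and -0.14 (ID3). Leaving out 1 library moved the log2 from 2.90 to 3.34 for BMP4 in DCN, 3.62 to 4.79 for INHBA in EDNRA/IGFBP7, 2.31 to 2.58 for TGFB1 in CD3E and 1.47 to 1.66 for ID3 in KDR/SELP/SELE; of 14 member and gate pairs called over 5 gates, 9 to 14 were then called.

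Between stages, 0 members were called over 5 gates and 0 to 1 with 1 library left out, the call being TGFB1 in CD3E. The TGFB1 call came without LH replicate 2, which leaves 1 LH ewe. Of the fits with 1 library left out, this one called the most genes, so no conclusion is drawn from the TGFB1 call. Without the filter on low counts the number of members called was 1 (ID3 in EDNRA/IGFBP7). Genes called, summed over 5 gates, were 8, and 953 without the filter, 293 by DESeq2, 2 with cells of several gates kept and 10 to 640 with 1 library left out. The replicate block gave 8 and no member, and 39 against 7 genes in DCN cells; same-numbered libraries deviated together with r from -0.23 to 0.11, over 0.1 in 1 of 7 groups, and no label links the numbers, so the block is given here only. The crossed block, chosen after seeing the data, gave 81 genes and no member. The causes were not tested.

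Leaving out 1 library gave log2 ranges of -0.48 to 0.00735 (ID3, DCN), -0.93 to 9.68 (TGFB1, DCN, with 0 UMIs in LH replicate 2), -1.03 to 0.31 (TGFB1, EDNRA/IGFBP7), -0.67 to 0.26 (ID3, CD3E), -0.75 to 0.22 (TGFB1, CD3E), -1.11 to 0.0451 (ID3, C1QA), -0.15 to 0.54 (TGFB1, C1QA), -0.69 to 1.02 (ID3, EPCAM/CLDN4), -2.15 to 0.30 (TGFB1, EPCAM/CLDN4), -1.57 to 1.24 (ID3, RELN) and -0.70 to 0.79 (BMP4, RELN). With the sign kept they were -1.14 to -0.50 (INHBA), -0.999 to -0.42 (ID3) and 0.15 to 0.98 (BMP4) in EDNRA/IGFBP7, 0.25 for BMP4 in DCN without LH replicate 1, and -0.11 for TGFB1 in the MMP7-led cluster without LH replicate 1. With cells of several gates kept, ID3 in DCN was 0.0504, TGFB1 in C1QA -0.16, ID3 in EPCAM/CLDN4 -0.0046 BMP4 in RELN 0.34 and BMP4 in EDNRA/IGFBP7 1.22. In RELN cells ID3 was -1.58 with no precedence among gates (unadjusted p = 0.047), BMP4 -1.38 with stricter gates and TGFB1 -1.21 with Leiden clusters. With Leiden clusters in place of gates, TGFB1 in C1QA was -0.24, and with stricter gates ID3 in EPCAM/CLDN4 was -0.0327. At least 50 cells per library leaves 4 gates, with 8 genes and 0 members called. Depth limits BMP4 in DCN cells, at 26 and 4 UMIs for LH, and INHBA in EDNRA/IGFBP7 cells, at 16 UMIs in LH replicate 1.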

Other observations

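The 2 largest clusters of fibroblast-like cells had different levels of BMP4 and ID3. The cluster led by DCN, SERPINF1 and MMP2 had 82.9 CPM of BMP4 and 339 CPM of ID3 over the libraries, and the cluster led by DCN and FGF10, with PTGS2 among its leading genes, 60.2 and 224 CPM. Scrublet called 28.0% and 0% of the latter's cells doublets for LH and 14.7% and 11.5% for LL, against at most 1.97% in the former. The latter held only 25 and 6 cells for LH. Among EDNRA/IGFBP7 clusters, that led by CNN1, EDNRA and TPM1 had 23.4 CPM of INHBA and 10.4 CPM of BMP4, and that led by FABP4, FST and IGFBP5 had 0.295 CPM of INHBA and 45.8 CPM of BMP4. ID3 also spread over the clusters with EDNRA among their leading genes. It ran from 319 CPM in that led by EDNRA, LPL and IL6 to 44.5 CPM in that led by FGF12, EDNRA and PPARG. The latter was shallow, with library medians of 719 to 1099 UMIs per cell against 2013.5 to 3117 in the former. The CPM values of these clusters are pooled and carry no test.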
